A study of Homo sapiens with 6 samples.

Results

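The genes described here build cilia. They are the 96 human genes whose single symbol in the array's annotation begins with BBS, IFT, DNAH, DNAI, CFAP or RSPH and a digit and carries no hyphen, out of 19775 genes measured. There were 8 BBS, 18 IFT, 13 DNAH, 5 DNAI, 46 CFAP and 6 RSPH genes. The BBS and IFT genes form a class of 26 ciliary transport genes and the other 70 a class of motile axoneme genes. Where a gene had several probe sets, the brightest over all 6 arrays stood for it. Probe sets were thus chosen by their mean intensity, which is given as a description only. The families were proposed with earlier results of this same comparison in view, so counts of their calls are no independent support. Read as whole symbols, with nothing after the digits, the rule leaves out IFT70A, IFT70B, CFAP20DC and CFAP97D1 and holds 92 genes.

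The samples were subclones of DLD-1, an established human colon adenocarcinoma cell line, of which 3 samples carried the label DLD-1Δα-Cat and 3 the label DLD-1α-Cat. The cells had been kept without treatment for 96 h inside type I collagen at 1 mg/ml, a gel that surrounds the cells with the main fibrous protein of connective tissue. Biotin-labelled total RNA of each sample was read on an Affymetrix array of its own. What Δα-Cat stands for is not written in the labels, which call both groups subclones, so an effect of the subclone and one of the label's condition cannot be told apart. Separate cultures are not named either, and p-values therefore measure a spread between samples that may be technical.

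A cilium is a microtubule rod, the axoneme, that a basal body anchors and a ciliary membrane covers. Intraflagellar transport (IFT) trains carry building material along it. The IFT-B complex goes outward with kinesin-2 and the IFT-A complex returns with dynein-2. The BBSome, an assembly of Bardet-Biedl syndrome (BBS) proteins, rides on these trains and takes membrane receptors out of the cilium. Primary cilia, single and immotile, need this transport and relay Hedgehog signals. Motile cilia of airway, ependyma and oviduct and the sperm flagellum carry in addition axonemal dynein arms (DNAH heavy and DNAI intermediate chains), radial spokes (RSPH) and many cilia- and flagella-associated proteins (CFAP). Colon epithelium has no multiciliated cells. Some CFAP genes also work outside motile cilia, such as CFAP20 on microtubules of primary cilia, CFAP410 at basal bodies and CFAP418 in photoreceptors.

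Deposited values were log2 intensities after RMA (robust multi-array average), with array medians between 6.12 and 6.15. Each difference is the mean of DLD-1Δα-Cat less that of DLD-1α-Cat on this scale and has its standard error (SE). A gene passed where limma gave an adjusted p under 0.05, by Benjamini-Hochberg over all 19775 genes. CTNNA1, which encodes αE-catenin and served as a check of the labels, stood at 11.38, 11.30 and 11.01 on the arrays of DLD-1Δα-Cat and at 12.73, 12.74 and 12.79 on those of DLD-1α-Cat, a difference of -1.52 (SE 0.119, limma adjusted p = 0.000838). Whether its probe set lies in an altered part of the gene is not given in the sources used here. Colon epithelial markers were bright, with EPCAM at 13.41 and 13.46 in DLD-1Δα-Cat and DLD-1α-Cat, and of 10 such markers KRT20 rose and CDX1 fell. Each is 10% of that list, where 3.84% of all genes rose and 1.67% fell. None of 8 fibroblast, 5 endothelial and 4 leukocyte markers with a value passed. Summed over each list, fibroblast markers lay at 8.06 to 8.16 in DLD-1Δα-Cat and 7.93 to 8.58 in DLD-1α-Cat, endothelial ones at 7.54 to 7.68 and 7.64 to 7.78, and leukocyte ones at 6.46 to 6.49 and 6.81 to 6.96. The 3' over 5' ratio of control probe sets is a sign of RNA quality. For β-actin its log2 was 5.07 to 5.38 in DLD-1Δα-Cat and 4.36 to 4.89 in DLD-1α-Cat, without overlap. For GAPDH it was 0.69 to 0.82 in DLD-1Δα-Cat and 0.51 to 0.79 in DLD-1α-Cat, with overlap. What part RNA quality had in the results was not tested. In RNA of whole cultures, fewer cells with a cilium and less RNA per cell cannot be told apart.

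Of the 96 ciliary genes, 8 rose in DLD-1Δα-Cat and 0 fell, 8.33% and 0% of them, where 3.84% of all genes tested rose and 1.67% fell, 5.52% together. The 8 were BBS1, BBS5 and IFT172 of the transport class and DNAH10, DNAI3, DNAI4, CFAP53 and CFAP251 of the axoneme class. For the 88 others limma gave no call in either direction. An unadjusted limma p under 0.05 was found for 23 of the 96, and for 4109 of all 19775 genes. The median difference was 0.14 over the 26 transport genes, -0.0086 over the 70 axoneme genes and -0.030 over all genes. Differences ran from -0.29 to 2.30 in the transport class and from -0.40 to 1.49 in the axoneme class. Above 0 lay 18 of 26 and 33 of 70 genes, or 36 of 70 after quantile normalization, against 44.7% of all genes. The 3 arrays of one group lay wholly above those of the other for 24 genes in favour of DLD-1Δα-Cat and for 7 in favour of DLD-1α-Cat, 32.3% together, while 27.2% of all genes were so separated (14.1% and 13.1%). No test of either class as a list was made.

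The count of calls depended on single arrays. The 3 transport calls became 1 without replicate 2 of DLD-1Δα-Cat, 1 without its replicate 3 and 0 without replicate 3 of DLD-1α-Cat. The 5 axoneme calls became 1, 0 and 0 without replicates 1, 2 and 3 of DLD-1Δα-Cat, and 3 and 2 without replicates 1 and 3 of DLD-1α-Cat. Of the 6 runs with 1 array left out, BBS5 passed in 5, DNAI3 and CFAP251 in 3, BBS1 and IFT172 in 2, DNAI4 and CFAP53 in 1 and DNAH10 in 0.

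**Figure D1:**
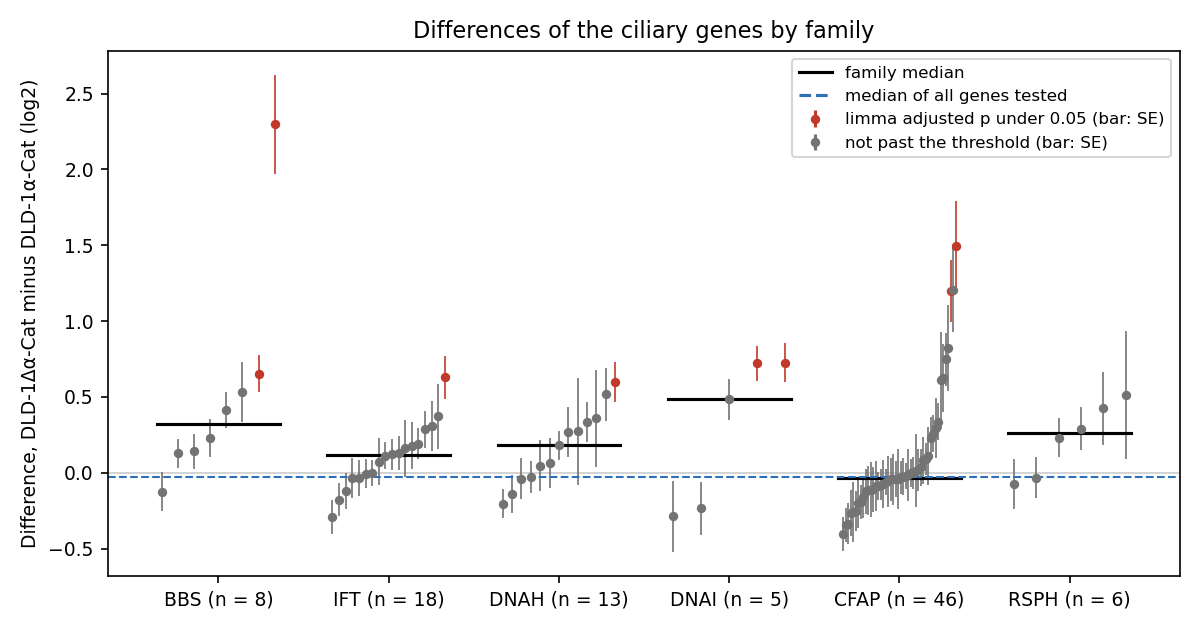
Differences of the 96 ciliary genes between the subclones on the log2 scale (vertical axis), ordered within each gene family (horizontal axis), with SE bars, family medians and the median of all genes. The 8 genes past the threshold lie above 0, and 29 of the 46 CFAP genes lie below 0.

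The classes also differed in how bright their probe sets were. In the transport class 25 of 26 chosen probe sets had a mean above the median of all probe sets on the array, 6.12, and BBS5 was the exception. In the axoneme class 31 of 70 did, namely 9 of 13 DNAH, 1 of 5 DNAI, 19 of 46 CFAP and 2 of 6 RSPH genes. Dim here means at or below that median, and how many dim sets measured no more than background was not tested. Probe sets differ in how strongly they bind, so this is no ranking of RNA levels between genes. Among all genes, 7.07% passed above that median and 2.79% at or below it. The corresponding counts were 5 of 56 ciliary genes above it and 3 of 40, BBS5, DNAI3 and CFAP53, at or below it.

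**Figure D2:**
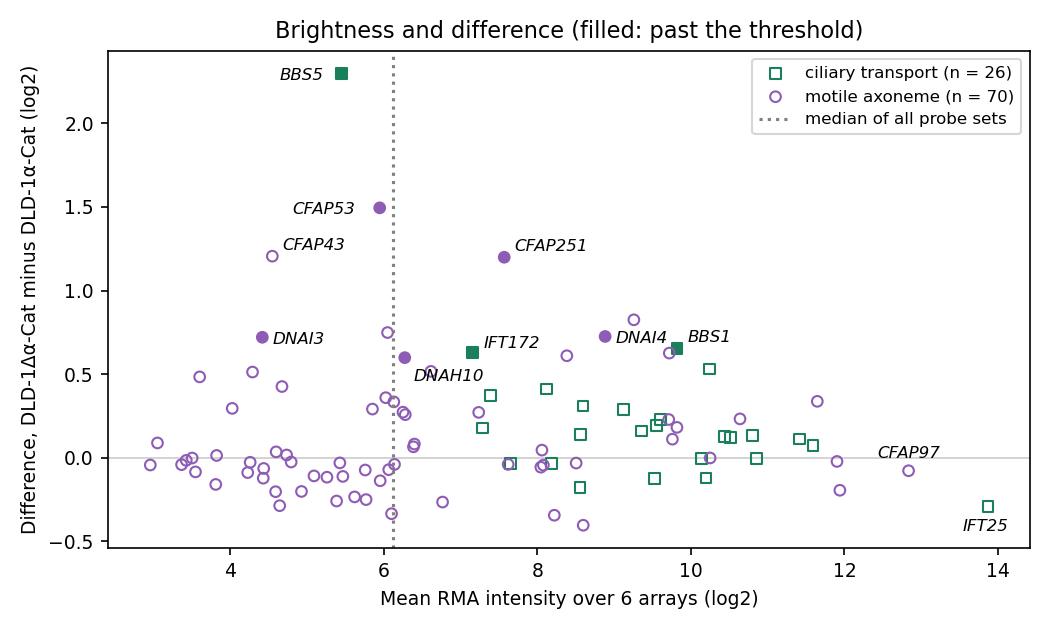
Mean intensity over 6 arrays (horizontal axis, log2) and difference between the subclones (vertical axis, log2) for the 26 transport genes (squares) and 70 axoneme genes (circles), filled where the threshold was passed. All transport genes but BBS5 lie right of the dotted median of all probe sets, and the axoneme genes lie on both sides of it.

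Of the 8 BBS genes 2 rose (25%, against 3.84% of all genes), and they held the largest rise of the 96. BBS5, a BBSome subunit that binds membrane phosphoinositides, stood at 6.78, 6.11 and 6.91 in DLD-1Δα-Cat and at 4.91, 3.71 and 4.29 in DLD-1α-Cat. All 3 arrays of DLD-1Δα-Cat lay above all 3 of DLD-1α-Cat, which were in the dim range. The difference was 2.30 (SE 0.326) with a limma adjusted p of 0.00970. Without replicate 3 of DLD-1α-Cat its limma adjusted p was 0.0557. BBS1, a propeller-shaped subunit through which the BBSome meets the small GTPase ARL6, stood at 10.00, 10.36 and 10.08 in DLD-1Δα-Cat and at 9.45, 9.61 and 9.43 in DLD-1α-Cat. Its groups did not overlap either, and the difference was 0.65 (SE 0.123) with a limma adjusted p of 0.0270.

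The other BBSome subunits gave smaller differences that did not pass. BBS4 differed by 0.41 (SE 0.117) and its arrays did not overlap between the subclones, yet the limma adjusted p was 0.0956. BBS7 differed by 0.23 (SE 0.124), BBS2, the brightest of the family, by 0.13 (SE 0.0962), and BBS9, the single BBS gene below 0, by -0.12 (SE 0.130). BBS10 and BBS12 encode chaperonin-like proteins that help the BBSome to assemble. BBS10 stood at 10.78, 10.43 and 10.31 against 10.19, 10.15 and 9.58, separated between the groups, with a difference of 0.53 (SE 0.198) and a limma adjusted p of 0.187. BBS12 differed by 0.14 (SE 0.116), with overlapping arrays.

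ARL6, known as BBS3, is the GTPase that recruits the BBSome to membranes, and it went the other way. It stood at 8.90, 8.90 and 8.82 in DLD-1Δα-Cat and at 9.96, 10.15 and 9.81 in DLD-1α-Cat. The arrays of DLD-1Δα-Cat were all lower and close together, and the difference was -1.10 (SE 0.113) with a limma adjusted p of 0.00272. It passed with each of the 6 arrays left out in turn. ARL6 was the 1 gene that fell, and 0 rose, among 11 ciliary genes with symbols outside the 6 families (9.09%, against 1.67% of all genes), a list that also held the BBSome subunit TTC8 at 0.31 (SE 0.148) and the chaperonin-like MKKS at -0.29 (SE 0.132), neither of which passed.

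**Figure D3:**
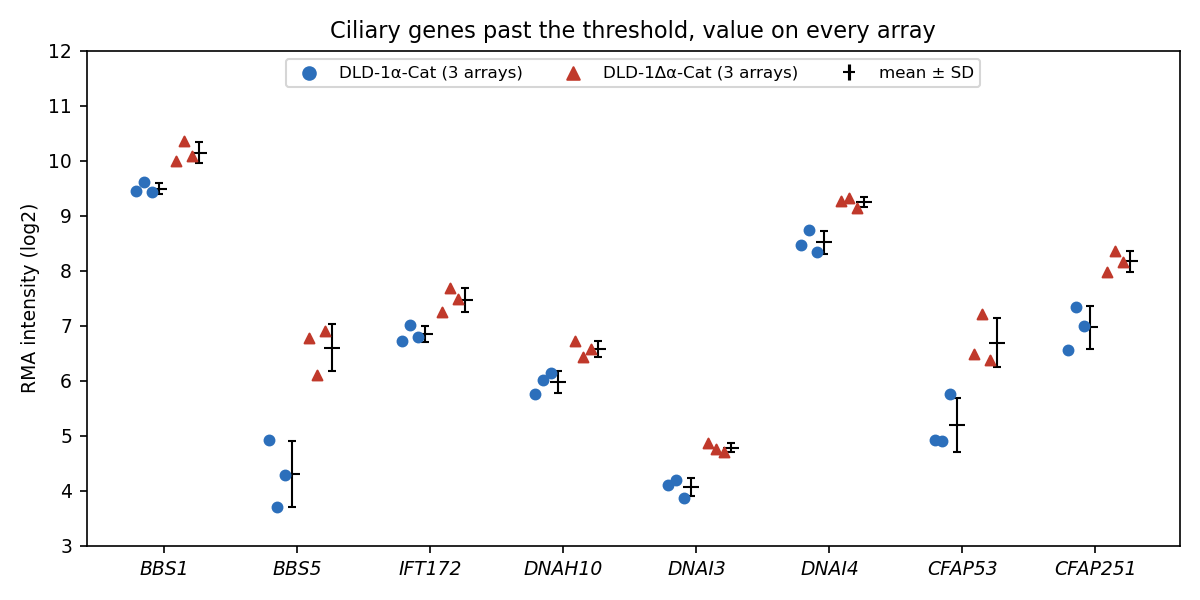
RMA intensity (vertical axis, log2) of the 8 ciliary genes past the threshold on every array, with the mean and SD of each subclone beside the points. The triangles of DLD-1Δα-Cat lie above the circles of DLD-1α-Cat for every gene shown, by the widest margin for BBS5.

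Among the 18 IFT genes 1 rose, 5.56%, near the 3.84% of all genes. IFT172, the largest IFT-B subunit, stood at 7.24, 7.69 and 7.49 in DLD-1Δα-Cat and at 6.72, 7.01 and 6.80 in DLD-1α-Cat. Every array of DLD-1Δα-Cat was above every array of DLD-1α-Cat, and the difference was 0.63 (SE 0.141) with a limma adjusted p of 0.0486, next to the threshold. On the other side of it, the closest gene that did not pass was CFAP43, with an adjusted p of 0.0536.

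The remaining 14 IFT-B genes lay between -0.29 and 0.31. IFT25, which pairs with IFT27 and had the brightest probe set of all 96 genes, was the lowest of them, at 13.83, 13.61 and 13.72 in DLD-1Δα-Cat and 14.16, 13.96 and 13.92 in DLD-1α-Cat. Its arrays did not overlap, but the limma adjusted p of its difference of -0.29 (SE 0.112) was 0.199. IFT27 itself differed by -0.12 (SE 0.120). IFT74 and IFT81 bind tubulin as a pair, and IFT74 (0.29, SE 0.122, arrays apart) and IFT81 (-0.036, SE 0.131) did not pass. IFT88, whose loss is known to stop ciliogenesis, differed by 0.16 (SE 0.185) and overlapped between the groups. IFT20, which also works at the Golgi, differed by 0.11 (SE 0.0878). The 3 IFT-A genes with IFT symbols gave 0.37 (SE 0.213) for IFT140, 0.13 (SE 0.113) for IFT43 and -0.18 (SE 0.109) for IFT122, and overlapped between the groups in each case. The IFT-A subunits WDR19 (0.26, SE 0.125) and WDR35 (0.43, SE 0.186) did not pass either. Of 9 genes of the IFT motors, among them the kinesin-2 subunits KIF3A (0.053, SE 0.138) and KIF3B (-0.12, SE 0.105) and the dynein-2 heavy chain DYNC2H1 (0.34, SE 0.224), 0 rose and 0 fell by limma, with 1 at an unadjusted p under 0.05. DYNC2I2, an intermediate chain of dynein-2 with the brightest probe set of that list, differed by -0.26 (SE 0.131).

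Of the axonemal dynein genes DNAH10, 1 of 13 DNAH genes (7.69%), and DNAI3 and DNAI4, 2 of 5 DNAI genes (40%), rose, where 3.84% of all genes did. DNAH10 is a heavy chain of the inner dynein arm with a pair of motor heads. It stood at 6.72, 6.43 and 6.57 in DLD-1Δα-Cat and at 5.77, 6.01 and 6.15 in DLD-1α-Cat, so the groups were apart by a narrow gap. The difference was 0.60 (SE 0.134) and the limma adjusted p 0.0471. With the replicate number as a block that p was 0.0765, and after quantile normalization DNAH10 did not pass either.

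DNAI4, an intermediate chain of the same arm formerly named WDR78, stood at 9.27, 9.33 and 9.14 in DLD-1Δα-Cat and at 8.48, 8.75 and 8.34 in DLD-1α-Cat. The 3 arrays of DLD-1Δα-Cat were close together and all higher, with a difference of 0.73 (SE 0.129) and a limma adjusted p of 0.0220. DNAI3, formerly WDR63 and likewise of the inner arms, was dim in both subclones, at 4.87, 4.76 and 4.71 against 4.11, 4.19 and 3.87. The groups did not overlap, and it differed by 0.72 (SE 0.115) with a limma adjusted p of 0.0151.

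DNAH2, the partner heavy chain of DNAH10, was also apart between the groups, at 6.95, 6.92 and 6.74 against 6.70, 6.01 and 6.36. Its difference of 0.52 (SE 0.176) had a limma adjusted p of 0.152 and did not pass. On their brightest probe sets all 4 chains of the double-headed arm thus lay between 0.52 and 0.73, a grouping made after their values had been seen and given without a test. Further sets of DNAH10 stood at -0.44 and -0.15 and that of DNAH2 at 0.16. Those of DNAI4 lay between 0.11 and 0.98, and DNAI3 has a single set. The 5 other inner arm heavy chains ranged from -0.14 (DNAH7) to 0.33 (DNAH6) and did not pass. DNAH3, the brightest DNAH probe set, differed by 0.18 (SE 0.0960).

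On their brightest probe sets, outer arm genes gave no call. The heavy chains DNAH5, DNAH8, DNAH9, DNAH11 and DNAH17 ranged from -0.20 (SE 0.0939) for DNAH11 to 0.36 (SE 0.321) for DNAH9. DNAH9 was high on replicate 1 of DLD-1Δα-Cat, at 6.9999, while the other 5 arrays lay between 5.57 and 6.02. The outer arm intermediate chains DNAI1 (-0.23, SE 0.175) and DNAI2 (-0.29, SE 0.235) were below 0 and overlapped between the groups. For DNAI1 the sign depends on the probe set. Its second set, almost as bright, differed by 1.06 (SE 0.203, limma adjusted p = 0.0366 over all single-gene probe sets). The second set of DNAI2 stood at -0.18. DNAI7, a protein associated with axonemal dynein and dim in both subclones, stood at 3.63, 4.08 and 3.82 against 3.44, 3.25 and 3.40, with a limma adjusted p of 0.0915.

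Of the 46 CFAP genes 2 rose, 4.35% against 3.84% of all genes, and 29 of 46 lay below 0, or 26 after quantile normalization. CFAP53, known from human laterality defects and located inside the microtubules of the axoneme, stood at 6.49, 7.21 and 6.38 in DLD-1Δα-Cat and at 4.92, 4.91 and 5.77 in DLD-1α-Cat. Replicate 3 of DLD-1α-Cat was higher than its other arrays but below all of DLD-1Δα-Cat. The difference was 1.49 (SE 0.296) with a limma adjusted p of 0.0324, or 0.0685 with the replicate number as a block. CFAP251, formerly WDR66, belongs to the calmodulin- and spoke-associated complex at the base of a radial spoke. It stood at 7.98, 8.36 and 8.17 in DLD-1Δα-Cat and at 6.57, 7.35 and 6.99 in DLD-1α-Cat. The groups did not overlap, and the difference was 1.20 (SE 0.204) with a limma adjusted p of 0.0188. Its partners in that complex, CFAP61 (-0.16, SE 0.140) and CFAP91 (-0.33, SE 0.135), lay below 0 and did not pass.

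Several CFAP genes were separated between the groups without passing. CFAP43, which with CFAP44 tethers the double-headed inner arm, stood at 4.84, 4.94 and 5.68 against 3.45, 4.19 and 4.199, with a difference of 1.21 (SE 0.280) and a limma adjusted p of 0.0536. CFAP96 stood at 6.22, 6.64 and 6.41 against 5.44, 6.004 and 5.58, with a difference of 0.75 (SE 0.176) and an adjusted p of 0.0553. With the replicate number as a block both passed, at limma adjusted p = 0.0269 and 0.0181. CFAP44 differed by 0.61 (SE 0.321) with overlapping arrays. With probe sets averaged, CFAP43 differed by 0.36 and CFAP96 by 0.28, and neither passed.

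CFAP70 (0.82, SE 0.284) and the basal body gene CFAP410 (0.63, SE 0.224) were each higher on all 3 arrays of DLD-1Δα-Cat. In both, replicate 1 of DLD-1α-Cat was the lowest array, at 8.19 for CFAP70 and 8.88 for CFAP410. These values are of the brightest set. All probe sets of CFAP70 ran from -0.10 to 1.07 and those of CFAP410 from -0.15 to 0.63. With probe sets averaged CFAP410 differed by 0.14. CFAP68, which lines the inside of the axonemal microtubules, differed by 0.34 (SE 0.122), also without overlap. None of these 3 passed.

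The deepest difference in the CFAP family was that of CFAP73, which modifies inner dynein arms together with CFAP100. CFAP73 stood at 8.37, 8.32 and 8.49 in DLD-1Δα-Cat and at 8.69, 8.73 and 8.98 in DLD-1α-Cat, fully separated, with a difference of -0.40 (SE 0.115) and a limma adjusted p of 0.0959. CFAP100 differed by -0.26 (SE 0.201). Listed here under the central apparatus were 7 CFAP genes, CFAP46, CFAP47, CFAP54, CFAP65, CFAP69, CFAP74 and CFAP221, which are not all of its genes. They lay between -0.26 and -0.025 without a call. All 7 were below 0 on the deposited scale and 6 of 7 after quantile normalization, where 44.7% of all genes lay above 0 on the deposited scale. CFAP70 (0.82, SE 0.284), higher on all 3 arrays of DLD-1Δα-Cat, was not put on this list. The shared direction therefore depends on which genes were listed. Central pair genes under other symbols lay on both sides without a call. SPAG6 (0.16), SPAG17 (0.11), SPEF2 (0.11) and SPAG16 (0.030) were above 0 and HYDIN (-0.012) below it. CFAP97, the brightest CFAP probe set, differed by -0.078 (SE 0.100), and CFAP20 by -0.19 (SE 0.112).

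None of the 6 radial spoke genes passed by limma, 0 of them at an unadjusted p under 0.05. RSPH4A, a spoke head protein, had the widest spread, at 3.98, 5.43 and 4.22 against 3.38, 4.54 and 4.18, and a difference of 0.51 (SE 0.424). RSPH14 was the one spoke gene with separated arrays, at 5.81, 5.88 and 6.31 against 5.71, 5.71 and 5.70, a difference of 0.29 (SE 0.143). RSPH3, the brightest, differed by 0.23 (SE 0.130), RSPH9 by 0.43 (SE 0.240), RSPH1 by -0.032 (SE 0.135) and RSPH6A, the lowest, by -0.073 (SE 0.162).

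Further probe sets of the same genes often gave other values. The 96 genes had 228 probe sets, 59 genes having more than 1, and with every single-gene probe set of the array tested 10 of the 228 were higher and 1 was lower. The share over all single-gene probe sets is not given here, so these 2 counts have no background to be read against. Of the brightest sets, 830 of 19775 passed in that fit in either direction, and 6 of those of the 96 genes. Of the 8 genes that rose, BBS5, IFT172 and DNAI3 have a single probe set, and 6 of the 8 still passed in that fit, without DNAH10 and IFT172. Both probe sets of CFAP53 passed, the second at 1.21 (SE 0.208, limma adjusted p = 0.0249 over all single-gene probe sets). DNAI4 passed on 2 of its 5, and the other 3 lay between 0.11 and 0.54. The 2 dimmer sets of CFAP251 were above 0 and did not pass. For BBS1 the further sets stood at -0.050 and -0.45 and for DNAH10 at -0.44 and -0.15, so those calls rest on the brightest set alone. When the probe sets of a gene were averaged, BBS1 differed by 0.052 and DNAH10 by 0.00485, neither past the threshold, and CFAP251 by 0.69, which passed.

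Some genes passed only on a probe set that was not their brightest, and they were named after these values had been seen. A dimmer set of DNAH3 stood at 7.30, 7.73 and 7.46 in DLD-1Δα-Cat and at 5.33, 6.17 and 6.28 in DLD-1α-Cat, and its difference was 1.57 (SE 0.255, limma adjusted p = 0.0201 over all single-gene probe sets). For DNAI1 the second set, almost as bright as the first, stood at 5.80, 5.99 and 6.57 against 5.18, 4.90 and 5.11, a difference of 1.06 (SE 0.203, limma adjusted p = 0.0366 over all single-gene probe sets), while the chosen one was below 0. CFAP92 fell on one set, at 7.42, 7.003 and 7.32 against 8.12, 8.62 and 8.43, a difference of -1.14 (SE 0.169, limma adjusted p = 0.0144 over all single-gene probe sets). The groups did not overlap on any of these 3 probe sets.

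**Figure D4:**
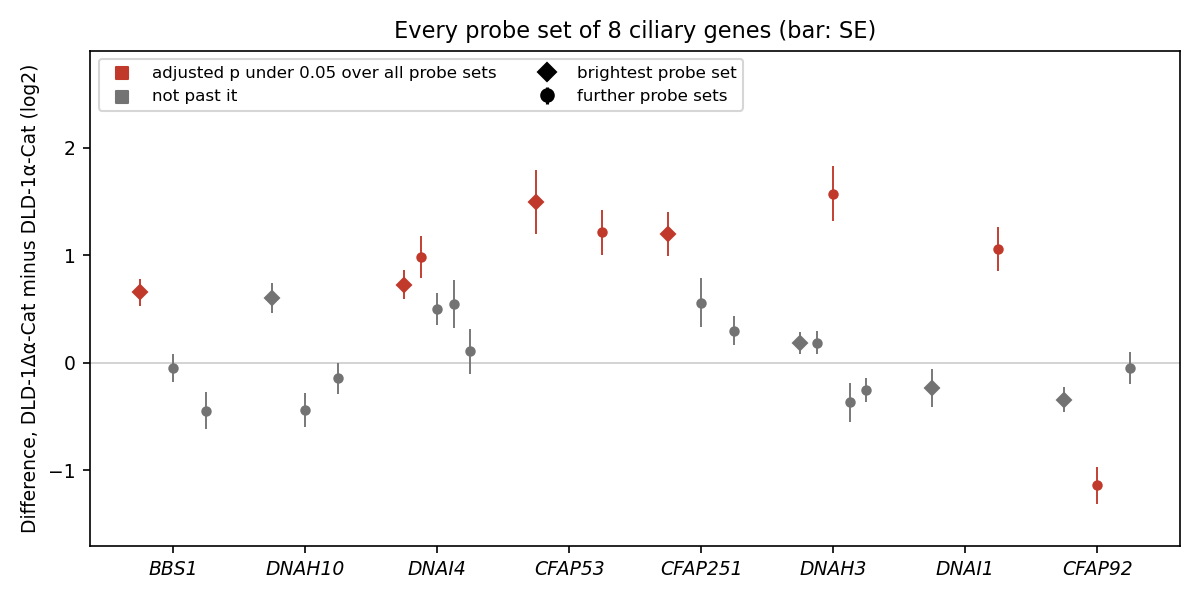
Difference between the subclones (vertical axis, log2, with SE) on every probe set of 8 ciliary genes (horizontal axis), the brightest as a diamond and the others in order of brightness. Sets of CFAP53 lie together, whereas those of BBS1, DNAH10, DNAH3 and DNAI1 lie on both sides of 0.

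Promoters were read for a shared sequence because RFX factors are known to switch on ciliary genes through the X-box, a pair of inverted half-sites. Windows of 300 bases, 250 before to 50 after the gene start, came from RefSeq (GRCh38.p14) and matched 85 of the 96 genes. The X-box was searched on both strands as GTNNCC and GGNAAC with 0 to 3 bases between them. It was found in 20 of 85 windows, 23.5%, against 2.74% of the windows of the genes tested and 2.36% of all 27305 windows. Of 22 matches, 18 began within 60 bases of the gene start. The share was 4 of 24 in the transport class and 16 of 61 in the axoneme class, with 0 of 7 BBS, 4 of 17 IFT, 5 of 11 DNAH, 0 of 4 DNAI, 9 of 41 CFAP and 2 of 5 RSPH windows. A match to these letters is a description and not a site. The matches of 5 genes are shown for their likeness, each as it stands on the gene's own strand; those of DNAH2 and CFAP251 were found by the search of the opposite strand:
DNAH1: GTTGCCATGGCAAC
DNAH2: GTTGCCATGGGGAC
CFAP251: GTTGCCATGGGGAC
CFAP45: GTTGCCAAGGTAAC
IFT70A: GTTGCCGTGGTAAC

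Among the 7 genes that rose and have a window, CFAP251 alone held such a match (14.3%, against 24.4% of 78 windows of genes that did not pass). A narrower half-site, GTTGCC or GGCAAC on the other strand, stood in 6 of those 7 windows. IFT172 lacked these letters but held GGTAAC, which matches the wider GGNAAC. The share of the narrower letters was 46.2% in genes that did not pass and 13% in genes tested. They were picked after the windows had been seen, so the contrast is a description only. Such a half-site can be part of an X-box match, as in CFAP251. The forkhead letters GTAAACA, bound by FOXJ1-type factors, were in 3 of 85 windows on either strand and in 2.62% of those of genes tested, and in 0 of the 7. DNAI4 was not among the windows.

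Promoters of 4 genes that rose are shown 5′ to 3′ along the gene, to set the X-box match of CFAP251 beside the lone half-sites of the others. Capitals mark a half-site or the whole X-box match. BBS5 lies at chr2:169479244-169479543 on the plus strand, BBS1 at chr11:66510385-66510684 on the plus strand, CFAP53 at chr18:50266446-50266745 on the minus strand and CFAP251 at chr12:121918342-121918641 on the plus strand (GRCh38.p14).
BBS5: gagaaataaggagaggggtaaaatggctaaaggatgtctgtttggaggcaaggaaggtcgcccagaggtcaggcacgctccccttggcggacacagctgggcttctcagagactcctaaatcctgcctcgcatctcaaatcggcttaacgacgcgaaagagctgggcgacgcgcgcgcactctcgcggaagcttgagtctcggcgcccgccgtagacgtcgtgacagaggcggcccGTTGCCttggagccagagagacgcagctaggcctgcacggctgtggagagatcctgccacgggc
BBS1: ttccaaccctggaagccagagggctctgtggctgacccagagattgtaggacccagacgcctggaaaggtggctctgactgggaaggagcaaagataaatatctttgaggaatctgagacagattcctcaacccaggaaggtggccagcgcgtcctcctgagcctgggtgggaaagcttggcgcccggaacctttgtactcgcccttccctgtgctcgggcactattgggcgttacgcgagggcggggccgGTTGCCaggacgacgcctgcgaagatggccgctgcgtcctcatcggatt
CFAP53: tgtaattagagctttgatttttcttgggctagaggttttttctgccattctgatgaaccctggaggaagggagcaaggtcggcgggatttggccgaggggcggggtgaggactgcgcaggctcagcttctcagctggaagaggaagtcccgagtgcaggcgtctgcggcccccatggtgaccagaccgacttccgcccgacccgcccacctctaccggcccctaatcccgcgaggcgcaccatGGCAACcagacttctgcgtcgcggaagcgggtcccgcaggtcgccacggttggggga
CFAP251: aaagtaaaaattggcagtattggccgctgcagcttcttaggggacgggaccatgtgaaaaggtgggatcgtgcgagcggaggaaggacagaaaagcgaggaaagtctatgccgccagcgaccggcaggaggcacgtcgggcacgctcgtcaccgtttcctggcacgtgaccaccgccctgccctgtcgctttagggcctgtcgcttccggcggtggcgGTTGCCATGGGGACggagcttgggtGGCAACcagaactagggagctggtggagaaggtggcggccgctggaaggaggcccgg
RFX3, the RFX factor best known from ciliogenesis, differed by 0.47 (SE 0.234) with a limma adjusted p of 0.304, and FOXJ1, the master factor of motile cilia, by -0.24 (SE 0.172) with an adjusted p of 0.470. MYB, the brightest of 10 listed regulators of ciliogenesis with a value, differed by -0.25 (SE 0.0885). The list also held CCNO and DEUP1, which are not transcription factors. None of the 10 passed by limma, 2 (MYB and CCNO) had an unadjusted p under 0.05, and 8 of 10 lay below 0. Of all 19775 genes, 4109 had such an unadjusted p and 10926 lay below 0.

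Other parts of the ciliary machinery changed in both directions. Among 29 transition zone and basal body genes, which gate the entry to the cilium, 2 rose (6.9%, against 3.84% of all genes) and 2 fell (against 1.67%). CC2D2A, a transition zone protein mutated in Joubert and Meckel syndromes, stood at 8.86, 8.71 and 8.87 in DLD-1Δα-Cat and at 7.08, 7.22 and 7.12 in DLD-1α-Cat. The spread within each group was small, with means of 8.81 ± 0.0889 and 7.14 ± 0.0727 (SD, n = 3), and the difference was 1.67 (SE 0.0981) with a limma adjusted p of 0.000230, past the threshold in 6 of 6 runs without an array. MKS1, of the same gate, rose by 0.48 (SE 0.102), with an adjusted p of 0.0415 by limma. TMEM107, a membrane protein of the gate, fell, with a difference of -0.58 (SE 0.104) and a limma adjusted p of 0.0231. SCLT1, of the distal appendages that dock the basal body, fell as well, by limma at -0.60 (SE 0.124) and an adjusted p of 0.0368. With single arrays left out, TMEM107 and MKS1 passed in 1 run of 6 and SCLT1 in 0. With the mean of probe sets CC2D2A differed by 1.00 and passed, while MKS1 (0.23) and SCLT1 (-0.29) did not, nor did MKS1 after quantile normalization (0.40).

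Of 24 genes of the ciliary membrane and Hedgehog signalling, 2 rose (8.33%, against 3.84% of all genes) and 0 fell (against 1.67%). KIF7, the kinesin that organises the ciliary tip for Hedgehog signalling, stood at 6.67, 7.88 and 8.21 in DLD-1Δα-Cat and at 4.68, 5.02 and 5.31 in DLD-1α-Cat. Its spread within DLD-1Δα-Cat was wide, yet the lowest of those arrays was above all of DLD-1α-Cat, which were in the dim range. The difference was 2.58 (SE 0.380) with a limma adjusted p of 0.0112. GLI3, a transcription factor of the pathway processed at the cilium, stood at 7.80, 7.51 and 7.69 against 7.07, 6.50 and 6.50. It differed by 0.98 (SE 0.175) with a limma adjusted p of 0.0224 and passed in 2 of 6 runs without an array. With the mean of probe sets it stood at 0.51 and did not pass. The pathway's target genes GLI1 (0.32, SE 0.149) and PTCH1 (0.24, SE 0.143) and the related factor GLI2 (0.46, SE 0.144) gave no call, with limma adjusted p of 0.279, 0.377 and 0.120. SMO, the receptor that enters the cilium, was dim and differed by 0.11 (SE 0.141).

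Among 29 further axoneme genes, a mix of dynein assembly and docking factors, tektins, nexin-dynein regulatory and central pair proteins, 1 rose (3.45%, against 3.84% of all genes) and 0 fell. It was DNAAF11, an assembly factor formerly named LRRC6, at 6.67, 6.44 and 6.58 against 5.81, 6.12 and 5.98, a difference of 0.59 (SE 0.118) with a limma adjusted p of 0.0334, or 0.0650 with the replicate number as a block. It passed in 1 of 6 runs with an array left out. A list of 10 genes was drawn up for capping or taking down the cilium, and it also held kinases of mitosis and centriole duplication. Of the 10, 0 rose and 2 fell, 20% of the list, against 1.67% of all genes that fell. Both that fell are such kinases, so the count is not specific to the cilium. PLK1, a mitotic kinase that also promotes disassembly, differed by -0.68 (SE 0.142) with a limma adjusted p of 0.0387. PLK4, the kinase of centriole duplication, differed by -0.53 (SE 0.105) with a limma adjusted p of 0.0312, or 0.0529 with the block. Leaving out single arrays, PLK1 passed in 1 run of 6 and PLK4 in 0, and PLK4 did not pass with probe sets averaged (-0.38).

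Of 9 multiciliated cell markers with a value, TUBA1A, an α-tubulin also present in other cells, fell (-0.82, SE 0.157, limma adjusted p = 0.0283) and 0 rose. The 1 that fell is 11.1% of the list, where 1.67% of all genes fell and 3.84% rose. Arrays did not overlap for 2 markers that were higher and 3 that were lower, 55.6% against 27.2% of all genes. TUBA1A passed in 1 of 6 runs with an array left out. SNTN, of the ciliary tip, differed by 0.70 (SE 0.179) and CAPS by 0.63 (SE 0.168), with limma adjusted p of 0.0705 and 0.0824, so neither passed. The list summed to 11.04 to 11.31 in DLD-1Δα-Cat and to 11.57 to 11.63 in DLD-1α-Cat, and MCIDAS was not analysed here. The brightest of its probe sets were those of CCNO, at means of 10.19 and 10.56, and TUBA1A, at 9.35 and 10.17, both lower in DLD-1Δα-Cat on average. The 7 others had means between 3.28 and 7.67, so the sum mostly follows that pair. What part these markers have in the values of the axoneme genes was not tested.

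**Figure D5:**
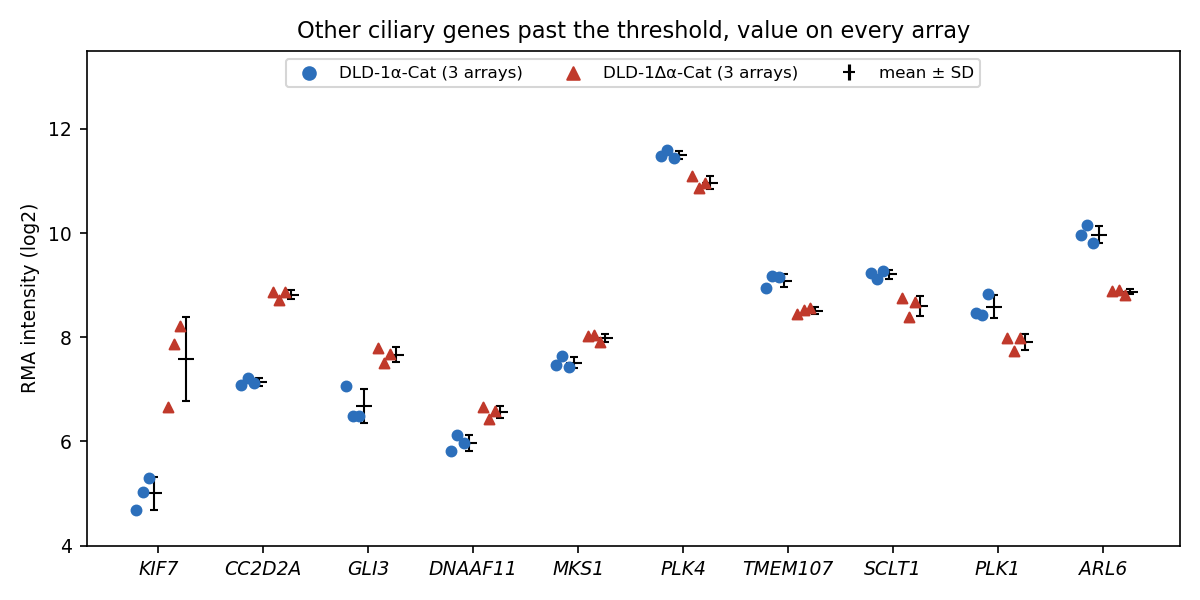
RMA intensity (vertical axis, log2) of the 10 genes of the other ciliary lists that passed the threshold, on every array with the mean and SD of each subclone. PLK1 and PLK4 are kinases of mitosis and centriole duplication. KIF7, CC2D2A, GLI3, DNAAF11 and MKS1 are higher and PLK4, TMEM107, SCLT1, PLK1 and ARL6 lower in DLD-1Δα-Cat.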

How the data were processed

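Per the submitters' processing notes, the authors made the deposited log2 values by RMA with Affymetrix Expression Console, with the version not given in the sources used here. This method removes background, gives every array the same distribution and summarises each probe set, which hides a shift of all RNA. Scanner files and detection calls were not used here. The number of arrays, 3 per group, limits the precision.

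Of 54675 probe sets, 62 controls were left out. The platform annotation, which can be old, gave 1 symbol for 41091, several for 1801 and listed none for 11721. All 96 genes matched a RefSeq gene ID. The test was limma 3.58.1 under R 4.3.3, with lmFit and eBayes on 1 probe set per gene, two-sided and without a filter; it was checked on simulated data. The genes, lists and roles were chosen with earlier results of these data known. Named were all ciliary genes past the threshold or separated by at least 0.5, the brightest, highest and lowest of each family, the genes nearest the threshold, and from each list the genes that passed or else the brightest; further genes were named to describe a complex, after their values were seen.

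Same-numbered replicates of the titles deviated together (0.23, 0.38 and 0.12 as correlations over genes). Whether the numbers pair the samples cannot be decided from correlations this low on so few arrays, and no label states it. The reported fit has no block, and the fit with the replicate number as a block was an alternative. The others were scaling, probe set choice, a filter on dim sets, variance model, array weights, leaving out each array and the whole-symbol reading, the last added after seeing the data.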

Additional observations from a re-analysis of the deposited data

Results flagged for a closer look

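A probe set shared by RSPH10B and RSPH10B2, near-identical radial spoke genes, was outside the comparison because it carries more than 1 symbol, and it differed between the subclones. It stood at 7.18, 7.57 and 7.24 in DLD-1Δα-Cat and at 5.65, 6.16 and 6.07 in DLD-1α-Cat, without overlap, a difference of 1.37 (SE 0.173, limma adjusted p = 0.0107 over all probe sets). The other probe set of the same pair stood at 12.35, 12.32 and 12.20 against 11.996, 12.06 and 12.11, a difference of 0.24 (SE 0.102) with a limma adjusted p of 0.319. The array cannot tell which of the genes was measured.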

How the results depend on the processing

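Counts of calls were 3 higher and 0 lower transport genes and 5 higher and 0 lower axoneme genes. Leaving out each array gave 0 to 3 and 0 to 0 in the transport class and 0 to 5 and 0 to 0 in the axoneme class, and medians of 0.10 to 0.18 and of -0.00599 to 0.048. Without dim probe sets 3 axoneme genes were higher and their median was 0.11. The mean of probe sets added 1 lower axoneme gene (CFAP92), array weights 1 (CFAP73), and trend with robust estimation 1 lower transport gene (IFT25). The replicate block kept the counts of 3 and 5, and 6 of the 8 genes; DNAH10 and CFAP53 were lost and CFAP43 and CFAP96 gained. Quantile normalization, centring, testing every probe set and the whole-symbol reading kept each count within 1.5 times. All 8 differences were above 0 under every alternative that gave them a value. This was fixed beforehand except under scaling and the mean of probe sets. The 8 were chosen as higher, their arrays did not overlap, and the other alternatives use the same values. With probe sets averaged, BBS1 differed by 0.052 and DNAH10 by 0.00485. Values that were not called changed sign: RSPH6A ran from -0.21 to 0.017 over the runs without an array, being above 0 at 0.00180 when replicate 2 of DLD-1Δα-Cat was left out, and the fibroblast marker COL1A1 from -0.49 to 0.042, with 0.081 under the mean of probe sets; the cause was not tested. Over all genes 1091 passed, 1714 with trend and robust estimation, 1461 with the block and 442 to 1202 without an array. Dim probe sets, 40 of the 96, limit what can be seen of low genes.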

Other observations

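Transcripts that run beside CFAP and DNAH genes carry hyphenated symbols and were left out of the 96. CFAP95-DT, a divergent transcript at CFAP95, stood at 3.34, 3.44 and 3.19 in DLD-1Δα-Cat and at 3.15, 2.99 and 3.09 in DLD-1α-Cat, separated but dim, with a difference of 0.25 and a limma adjusted p of 0.241. CFAP65-AS1 differed by 0.14, CFAP100-DT by -0.12 and DNAH17-AS1 by -0.18, and these 3 overlapped between the groups. The probe set shared by IFT80 and TRIM59 differed by -0.10 (SE 0.218).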
